A study of Mus musculus with 4 samples.

Results

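Smoc2 fibroblasts are one of the resident fibroblast classes of the mouse pancreas, and they were described here in 3 single-cell libraries taken outside acute injury. A barcode was a Smoc2 fibroblast if it passed a quality filter (500 or more UMIs, 200 or more genes and at most 20% mitochondrial UMIs), met 4 conditions that gated fibroblasts, and fell on one side of a Smoc2 and Pi16 split. The gate asked for 5 or more UMIs of Dcn, 5 or more of Col1a2 and Col3a1 together, and none of Ptprc or Rgs5, genes of leukocytes and of pericytes. The split asked for 2 or more UMIs of Smoc2 and none of Pi16. A UMI is 1 captured RNA molecule. The rule gave 1381 cells of 2483 gated fibroblasts, of 8151 cells passing the filter in the 3 libraries and of 12807 in the whole series. There were 375 Smoc2 fibroblasts 2 days after saline (library S2D), 478 at 6 weeks after saline (S6W) and 528 at 6 weeks after caerulein (C6W). Since measured UMIs chose the cells, the levels of the rule's genes are given as a description.

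All libraries came from whole pancreata of wild-type C57BL/6 mice, dissociated to single cells and sorted as DAPI-negative (living) cells. The mice had received saline or caerulein, a peptide that acts like the gut hormone cholecystokinin and, in excess, makes the pancreas digest itself and inflame. The ages and the number of mice per library are not given in the sources used here. The labels call the saline pancreata inflammation-naive and the caerulein pancreata pancreatitis. Each group was 1 library, so no difference was tested against variation between animals, and every interval printed is a 95% interval of counting error. The fourth library, 2 days after caerulein (C2D), held 178 cells that passed the same cell rule. These are no Smoc2 fibroblasts of the set described and appear only beside it.

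Fibroblasts of an organ fall into classes by place. Adventitial fibroblasts, marked by Pi16, sit in the connective tissue around vessels and ducts and build fibrillar and elastic matrix. Parenchymal fibroblasts lie between the lobules and around acini and capillaries, where they lay down basement membrane components and secrete chemokines and growth factors that act on epithelium, endothelium and immune cells. Both classes can turn on wound genes such as Postn and Cthrc1 after damage. Smoc2 itself encodes a secreted calcium-binding matrix protein of the SPARC family. It lies at chr17:14279506-14404790 on the plus strand of mm10.

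Libraries held 29145886 (S6W) to 71547194 (C2D) UMIs and 2032 (S6W) to 4656 (C2D) barcodes passing the filter. Smoc2 fibroblasts had a median of 9859 UMIs per cell in S2D, 12257 in S6W and 10575.5 in C6W, and median mitochondrial shares of 3.50 to 3.55%. The C2D cells were deeper, at 21539 UMIs. Digestive enzyme genes made up 2.74% of UMIs in S2D Smoc2 fibroblasts and 1.46% in S6W and in C6W. A single C6W cell held 42.1% immunoglobulin UMIs, and no other Smoc2 fibroblast was above 1%. Cell barcodes were shared between libraries in 3 to 22 cases a pair. None of the S2D Smoc2 fibroblasts, 2 of S6W and 3 of C6W had a barcode found in another library. Together with the immunoglobulin-rich cell, 6 cells were left out in an alternative.

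The 5 marker genes were each higher in Smoc2 than in Pi16 fibroblasts, by a wide margin for Mgp and Ccl11 and a narrower one for Dpep1 and Meg3. Pi16 fibroblasts were cells of the same gate with 2 or more Pi16 UMIs and none of Smoc2 (83 in S2D, 43 in S6W and 83 in C6W). Levels are given as CPM, UMI counts scaled to a common library total, summed over the cells of a class and scaled by TMM. Smoc2 was at 1981 CPM in S2D, 2245 in S6W and 1627 in C6W, which is the rule's own gene. Mgp, an inhibitor of calcification in soft tissue, was at 6261, 8167 and 9004 CPM against 805, 2104 and 1026 in Pi16 fibroblasts of the same libraries. Ccl11, the eosinophil chemokine eotaxin, was at 4333, 3168 and 4338 CPM against 1516, 968 and 1037. Dpep1, a membrane dipeptidase that acts on leukotriene D4, was at 1811, 1671 and 1429 CPM against 1180, 591 and 745. Meg3, a maternally expressed long noncoding RNA, was at 2058, 1627 and 1558 CPM against 1264, 1416 and 927. The smallest gap within a library was that of Meg3 in S6W.

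**Figure D1:**
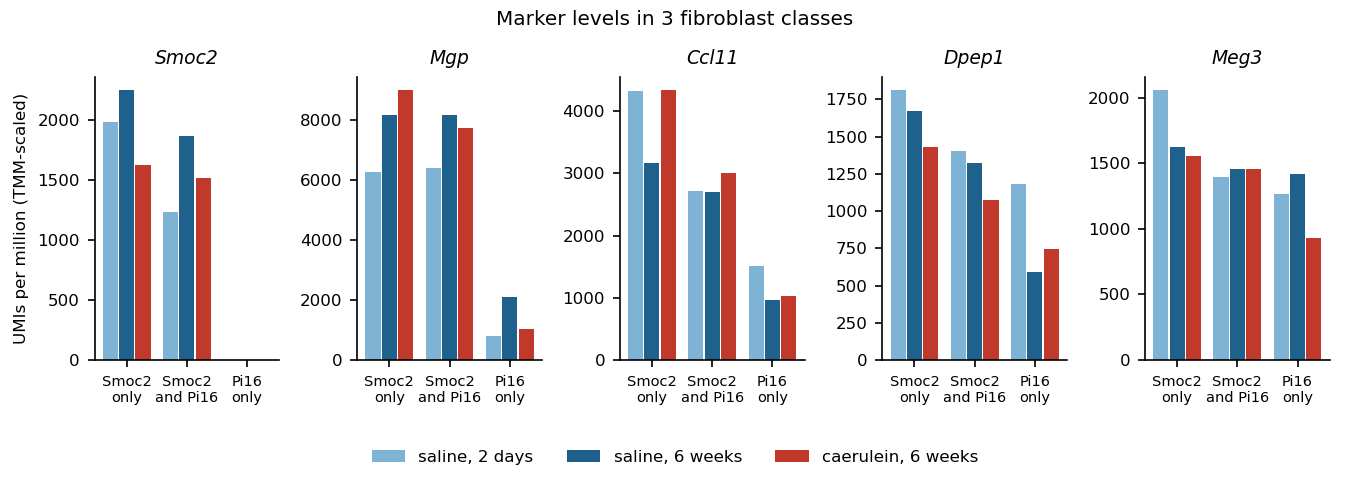
Levels of the 5 markers (bars, CPM after TMM scaling) in Smoc2 fibroblasts, in cells with 2 or more Smoc2 UMIs and at least 1 of Pi16, and in Pi16 fibroblasts without Smoc2, by library. Cells with both genes had Mgp near the level of Smoc2 fibroblasts, and Ccl11 and Dpep1 between the other classes.

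Nearly all Smoc2 fibroblasts had a UMI of each marker. Ccl11 was found in 98.9% of cells in S2D, 98.5% in S6W and 99.2% in C6W. Lymphocytes, which should lack these genes and so show free RNA, had a Ccl11 UMI in 4.18, 5.68 and 8.83% of cells at median depths of 7404, 8001.5 and 8731 UMIs. Dpep1 was found in 99.2, 99.4 and 99.8% of Smoc2 fibroblasts and in 3.16, 1.14 and 3.38% of lymphocytes. After thinning every cell to 3000 UMIs, Mgp separated the classes most. It was then found in 93.9, 96.0 and 96.2% of Smoc2 fibroblasts against 23.8, 30.2 and 25.3% of Pi16 fibroblasts.

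Markers of other cell types ranged from near 0 (T cells) to well above it (acinar cells). Among 8 adventitial genes Pi16 was at 0 by the rule, and the list summed to 189 to 236 CPM. The mural list of 8 genes summed to 47.0 to 74.1 CPM with Rgs5 (by the rule) and Cnn1 at 0. The stellate list of 6 genes summed to 288 CPM in S2D, 382 in S6W and 364 in C6W, while Lrat, the retinol-storing enzyme, was at 0 CPM in S2D, 0.323 in S6W and 0.743 in C6W. T cell genes summed to 0.263 to 0.743 CPM. Macrophage genes summed to 21.9 to 33.4 CPM over 7 genes, ductal genes to 82.2 to 113 CPM over 7 and mesothelial genes to 61.7 to 118 CPM over 6. Endothelial genes summed to 59.8 CPM in S2D, 148.5 in S6W and 64.3 in C6W over 6, of which Plvap gave 59.0, 140.1 and 60.9, and Cdh5 was at 0, 0.969 and 0. Acinar genes, 8 of them and none at 0, summed to 14160 CPM in S2D, 7296 in S6W and 8296 in C6W, and B cell genes to 180.7, 28.2 and 3521. The C6W value of the B cell list came largely from the 1 immunoglobulin-rich cell, which held 12279 of the 12557 Igkc UMIs of that library's Smoc2 fibroblasts.

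Smoc2 fibroblasts were the most numerous class of the gated fibroblasts outside acute injury. They made up 56.5% in S2D (375 of 664, 52.6 to 60.3%, Clopper-Pearson), 64.8% in S6W (478 of 738, 61.2 to 68.2%) and 48.8% in C6W (528 of 1081, 45.8 to 51.9%). In C2D the same cell rule gave 35.1% (178 of 507, 31.0 to 39.4%). The interval of the C6W share lay below both saline intervals. Cells with both genes (Smoc2 2 or more, Pi16 1 or more) stood at 19.7% in S2D, 22.1% in S6W, 34.8% in C6W and 43.6% in C2D. With every cell thinned to 3000 UMIs before the rule, shares of Smoc2 fibroblasts were 54.0% in S2D (49.96 to 58.0%), 65.6% in S6W (61.9 to 69.1%) and 50.8% in C6W (47.7 to 53.9%), and 26.3% in C2D. The intervals of C6W and S2D then overlapped. Cells with both genes then stood at 8.81, 9.39, 15.5 and 7.87%, so C6W remained above both saline libraries and C2D did not. These are shares of the sorted suspension, and fewer cells of a class cannot be told apart from poorer release or capture.

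Few cells lay near the Smoc2 threshold. Cells without Pi16 that had exactly 1 Smoc2 UMI numbered 14 in S2D, 10 in S6W and 21 in C6W, and those with exactly 2 numbered 8, 8 and 11. Ccl11 was at 5000, 7282 and 4084 CPM (plain CPM, without TMM scaling) just outside the threshold and at 4950, 3803 and 3354 just inside. Cells with no Smoc2 and no Pi16 were 23, 19 and 20, and their Ccl11 was at 1389, 1244 and 2002 CPM. Cells with 10 or more Smoc2 UMIs were 273, 395 and 368. Mgp, unlike Ccl11, was lower just inside the threshold than in cells with neither gene. It was at 4129, 10072 and 2745 plain CPM just outside the threshold and at 3529, 3395 and 1165 just inside. In cells with neither gene Mgp was at 6662, 5540 and 4600. In cells with 10 or more Smoc2 UMIs it was at 7040, 9066 and 9774.

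Smoc2 fibroblasts differed from Pi16 fibroblasts in the kind of matrix they expressed, among other genes. A gene was counted where its level differed at least 2-fold in the same direction in each of the 3 libraries, among 5474 genes with at least 100 UMIs over both classes in each library. Of these, 252 (4.60%) were higher and 138 (2.52%) lower in Smoc2 fibroblasts. The rule split the classes by 2 genes, so these numbers describe the split and test nothing. Genes of the rule and digestive, immunoglobulin and haemoglobin genes were left out of all counts.

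Of the gene lists, that of basement membrane and pericellular matrix had the most genes on the Smoc2 side. Of 19 measured genes of that list, 8 were higher in all 3 libraries and 0 lower. The list medians were 1.01, 0.64 and 1.27 (log2, Smoc2 over Pi16 fibroblasts) in S2D, S6W and C6W, beside 0.09, 0.08 and 0.10 for all tested genes. Col4a1, a chain of the collagen IV network, was at 1612, 1639 and 1514 CPM against 268, 242 and 223 in Pi16 fibroblasts. Col15a1, a basement membrane zone collagen, was at 948, 1016 and 1044 CPM against 84.4, 178 and 108. Nid2, which links laminin to collagen IV, was at 178, 157 and 173 CPM against 13.9, 18.5 and 10.6. Hspg2 (perlecan), Lamb1, Col4a2, Col6a3 and Sparcl1 made up the rest of the 8.

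Elastic fibre and microfibril genes leaned the other way. Of 21 measured, 7 were lower in Smoc2 fibroblasts and 1, Mgp, was higher. Fn1 (fibronectin) was at 140, 86.4 and 117 CPM in S2D, S6W and C6W against 1744, 1598 and 1985. Eln (elastin) was at 96.9, 133 and 151 CPM against 424, 557 and 482, and Fbn1 (fibrillin-1) at 274, 260 and 306 against 1041, 1259 and 1120. Efemp1, Mfap4, Mfap5 and Emilin2 were the other lower ones. Of 5 measured genes of the fibrillar collagen list, Col5a3 was higher, at 511, 541 and 527 CPM against 185, 165 and 124, and Col14a1 was lower, at 221, 202 and 246 against 743, 909 and 899.

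Secreted signals differed too. Of 15 measured chemokine and cytokine genes, 5 were higher (Ccl7, Ccl11, Cxcl12, Cxcl14 and Tslp) and 1, Il33, was lower. Cxcl14, a chemokine expressed by many stromal cells, was at 872, 1229 and 1144 CPM against 5.56, 94.0 and 18 in Pi16 fibroblasts. Cxcl12, the ligand of Cxcr4, was at 440, 470 and 368 CPM against 175, 208 and 149. Il33, a nuclear alarmin, was at 35.3, 52.6 and 48.7 CPM against 206, 332 and 279. Among 21 genes of the BMP and TGF-beta pathway, Bmp4 and Id1 were higher and Tgfb2, Fst, Fstl1 and Tgfbr2 lower. Bmp4, a BMP ligand, was at 271, 266 and 237 CPM against 23.2, 65.5 and 33.5, and Id1, a target of BMP signals, at 53.7, 99.3 and 64.7 against 24.1, 11.4 and 13.1. Of 7 Wnt genes, the agonist Rspo3 was higher, at 189, 159 and 185 CPM against 64.0, 54.1 and 58.9. The secreted inhibitor Sfrp4 was almost absent from Smoc2 fibroblasts, at 2.63, 0.807 and 1.11 CPM against 131, 219 and 155. Igfbp5 and Igfbp6, of 5 IGF-binding proteins, were lower, and so were the complement genes C4b and Cd55.

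Lipid genes and a few receptors also differed between the classes. Of 23 measured receptors of cytokines and hormones, Il1r1, Lifr and Ifngr1 were higher and Ackr3 was lower. The receptor medians were 0.15, 0.01 and 0.13 (log2) in S2D, S6W and C6W, near the 0.09, 0.08 and 0.10 of all tested genes. Lifr, the receptor of leukaemia inhibitory factor, was at 260, 198 and 221 CPM against 32.4, 27.1 and 18. Ackr3, a scavenger receptor of Cxcl12, was at 44.8, 31.0 and 38.6 CPM against 632, 877 and 874. The ligand was thus higher in one class and its scavenger in the other. Of 15 lipid and eicosanoid genes, 6 were higher (Ptger4, Apoe, Apod, Lpl, Abca8a and Abca9) and 1, Ptgs1, was lower. Lpl, the lipase of circulating lipoproteins, was at 1736, 2197 and 2089 CPM against 639, 420 and 390. Ptgs1, a cyclooxygenase, was at 9.48, 6.13 and 5.57 CPM against 144, 164 and 128.

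Transcription factors gave few differences: of 20 measured, Osr1, Ebf2 and Zeb1 were lower. Osr1 was at 50.6, 31.0 and 29.4 against 200.3, 95.4 and 126. Of 25 proteases and inhibitors, Adamts9, Serpine2, Fap and Pcolce were higher and Timp2, Dpp4 and Pcolce2 lower. Of 10 imprinted genes Dlk1, Plagl1 and Mest were higher. Among wound genes Thbs1 and Fap were higher. No gene of the NF-kB (16 measured), interferon (17), antigen presentation (10), metal (14) or folding (20) lists passed in either direction.

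Ranked by the smallest ratio over the 3 libraries, the highest 10 genes included receptors and a peptide. Adcyap1r1, the receptor of the neuropeptide PACAP, was at 164, 151 and 132 CPM against 9.27, 8.55 and 7.36, log2 ratios of 4.14 to 4.16. Nmb, which encodes neuromedin B, was at 306, 220 and 197 CPM against 11.1, 7.12 and 9.0. P2ry1, an ADP receptor, was at 57.4, 101 and 90.8 CPM against 3.71, 1.42 and 0.818. Serpine2, an inhibitor of serine proteases, was at 487, 590 and 468 CPM against 15.8, 17.1 and 30.3. Vtn (vitronectin), Cldn15, Adap2, Ogfrl1, Cxcl14 and Dlk1 completed the 10. The 10 lowest were Mustn1, Sfrp4, Efhd1, Tmem100, Nov, Sema3c, Ly6c1, Anxa3, Opcml and Smpd3. Sema3c, a secreted guidance protein, was at 19.5, 14.7 and 7.25 CPM against 398, 433 and 378.

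**Figure D2:**
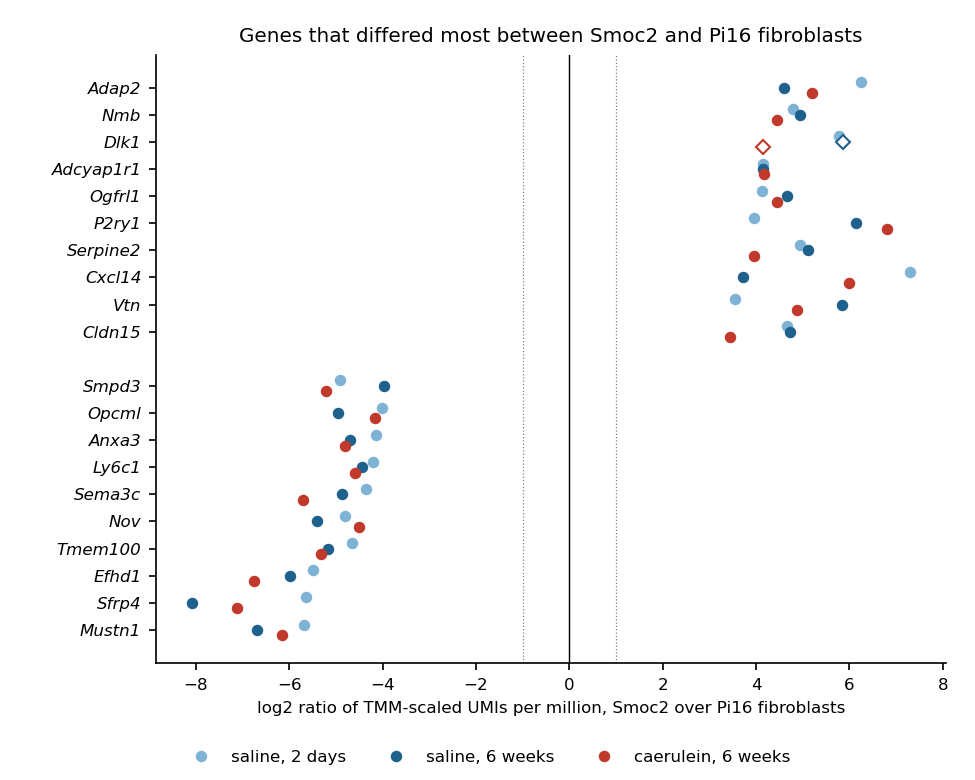
Log2 ratio of Smoc2 over Pi16 fibroblasts (points, 1 for each of the 3 libraries) for the 10 genes with the highest and the 10 with the lowest smallest ratio. Open diamonds are bounds, since Dlk1 had no UMI in Pi16 fibroblasts of S6W and C6W, and dotted lines mark 2-fold.

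Part of these genes were also apart in cells of both classes taken 2 days after caerulein. The genes were chosen as 2-fold apart in each of the 3 libraries, so all of them pass there by choice. A lower share in C2D follows in part from that choice. Of the 252 genes, 185 had 100 UMIs in C2D, and 58 (31.4%) were 2-fold higher and 0 lower in Smoc2-rule cells than in Pi16 fibroblasts. Of the 138, 94 were measured, and 19 (20.2%) were 2-fold lower and 1 higher. Over all 4658 tested genes measured in C2D, 4.98% were higher and 1.27% lower. The C2D Pi16 fibroblasts were 24 cells, so these shares rest on few cells. Cxcl14 kept a ratio of 2.40 and Sfrp4 of -4.27, while Col15a1 was at 0.01 and Bmp4 at 0.06.

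The saline libraries differed from each other by a small number of genes, which sets the scale for what follows. Of 7963 genes with at least 100 UMIs over S6W and S2D, S6W exceeded S2D 2-fold or more in 47 (0.590%) and was lower to that degree in 41 (0.515%). The lowest 5 were Dbp, Nr1d1, H19, Per3 and Tef, of which Dbp, Nr1d1, Per3 and Tef belong to the circadian clock or its output. Dbp was at 68.2 CPM in S2D, 2.74 in S6W and 4.09 in C6W, and Nr1d1 at 56.4, 5.49 and 4.64. Per3 was at 21.1, 3.39 and 4.46 CPM. Dbp, Nr1d1 and Per3 were low in both 6-week libraries, while Tef, at 34.0, 6.94 and 16.5 CPM, and H19, at 26.6, 1.78 and 16.7, were lowest in S6W and intermediate in C6W. The highest 5 were Fdps, Cilp, Fdft1, Sqle and Lsmem1, of which Fdps, Fdft1 and Sqle are enzymes of cholesterol synthesis. Fdps was at 7.38 CPM in S2D, 50.7 in S6W and 28.8 in C6W. Cilp, a matrix protein of cartilage and scar, was at 17.1, 94.3 and 197 CPM.

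At 6 weeks after caerulein, a similar number of genes was 2-fold apart from saline as between the saline libraries. Of 8320 genes, C6W exceeded S6W 2-fold or more in 65 (0.781%) and was lower to that degree in 54 (0.649%). With plain CPM, which moved the median of all genes to -0.15, the split was 37 higher and 83 lower. Against S2D, 58 (0.756%) of 7672 were higher and 41 (0.534%) lower in C6W, or 44 and 56 with plain CPM. Without the 6 cells that stand apart, 60 were higher and 53 lower than in S6W. With free RNA subtracted the counts were 152 and 829 for C6W against S6W and 635 and 131 for the saline pair. Both comparisons share the C6W library, so their values are set side by side.

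Has1 and several chemokine genes were on the higher side. Has1, a synthase of hyaluronan, was at 311 CPM in S2D, 183 in S6W and 775 in C6W, a log2 ratio of C6W to S6W of 2.08 (1.99 to 2.18). It was found in 32.8, 22.8 and 50.6% of Smoc2 fibroblasts and in 2.14, 1.70 and 4.42% of lymphocytes. With cells thinned to 3000 UMIs the shares of Smoc2 fibroblasts were 23.8, 14.7 and 39.2%. Pi16 fibroblasts had more Has1, at 1155, 1327 and 1845 CPM, and at 581, 633 and 1098 CPM in cells with both genes. Cxcl2, a neutrophil chemokine, was at 59.5, 34.4 and 119 CPM, but its log2 ratio of C6W to S6W went from 1.79 to -5.36 with free RNA subtracted. The subtracted value may be a bound, since a library left with no UMI is set to a floor, and this was not tested. Cxcl9, an interferon gamma target, was at 10.3, 5.65 and 29.9 CPM. Of 16 measured chemokine and cytokine genes, 5 were higher in C6W than in S6W (Ccl2, Cxcl2, Cxcl9, Cxcl10 and Il6) and 0 lower, with a median of 0.31 against S6W and 0.41 against S2D. Il6 was at 549, 289 and 743 CPM, and Ccl2, the monocyte chemokine, at 641, 489 and 1065. For Il6 and Ccl2 the C6W level was less than 2-fold above S2D, and with plain CPM the log2 ratio of Ccl2 to S6W was 0.98, under 2-fold.

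The interferon list showed how far the control mattered. Of 21 measured, Ifit3, Ifi47, Iigp1 and Igtp were higher and 0 lower in C6W than in S6W, with a median of 0.76. The median against S2D was 0.25, and that of S6W against S2D was -0.50, so S6W was the low library. Iigp1, a GTPase of defence against intracellular parasites, was at 418 CPM in S2D, 180.3 in S6W and 620 in C6W. NF-kB genes had medians of 0.50 against S6W and 0.31 against S2D, and immediate early and dissociation genes 0.33 and 0.11. The latter list is known to respond to tissue dissociation. The part of dissociation in the chemokine and NF-kB values was not tested.

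Few matrix genes were 2-fold apart at 6 weeks. Medians against S6W were 0.14 for 6 fibrillar collagens, 0.05 for 23 basement membrane genes and 0.14 for 22 elastic fibre genes, and each went slightly below 0 with plain CPM. Lamc3, a laminin chain, was the 1 gene of the 3 lists that passed against S6W, at 14.5 CPM in S2D, 22.0 in S6W and 5.76 in C6W. Against S2D, Fbln7 and Mfap4 of the elastic fibre list were higher in C6W, at 22.9, 34.4 and 50.5 CPM and at 14.5, 46.0 and 51.8, and Mfap4 was also higher in S6W. Col1a1 was at 1111, 1255 and 1313 CPM. Postn was at 3.95, 13.7 and 22.9 CPM, past 2-fold above S2D in both 6-week libraries, and Cthrc1 at 0.790, 1.94 and 2.60. Of 14 measured wound genes, Tnc, Timp1 and Runx1 were higher and Tagln and Myl9 lower in C6W than in S6W.

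Genes of C6W outside both saline libraries gave a stricter view. Over 9052 genes, 29 (0.320%) were at least 2-fold above the higher of the saline levels and 29 (0.320%) at least 2-fold below the lower one, or 18 and 41 with plain CPM. The same count gave 6 higher (0.0663%) and 13 lower (0.144%) for S6W outside the other libraries, or 13 and 11 with plain CPM. For S2D it gave 14 higher (0.155%) and 22 lower (0.243%), or 19 and 18 with totals taken without digestive genes. C6W had the most genes outside the other libraries on the lower side under each of the 4 scalings, but with cells thinned to 3000 UMIs S2D had the most, 17 against 8 for C6W and 8 for S6W. On the higher side it had the most with TMM, while with plain CPM C6W and S2D both had 18, and without digestive genes C6W had 18 and S2D 19. With free RNA subtracted S6W had 540 and C6W 52.

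Of the 10 highest, Mzb1, Cd79a, H2-Ab1 and Cd74 are genes of B lineage or antigen-presenting cells and came from the 1 immunoglobulin-rich cell. That cell held 191 of 195 Mzb1 UMIs and 257 of 348 Cd74 UMIs. Without the 6 cells that stand apart, 25 genes were higher and 28 lower, Mzb1 was at 0.751 CPM and Cd79a at 2.44 in C6W, and H2-Ab1 was 0.14 and Cd74 0.00 above the nearer saline level (log2). The other 6 were Cxcl9, Myoc, Pmepa1, Has1, Palld and Zim1, and leaving those cells out moved none of them by more than 0.02. Pmepa1, which is induced by TGF-beta and restrains it, was at 25.3 CPM in S2D, 26.2 in S6W and 68.4 in C6W. Palld (palladin), an actin scaffold, was at 15.3, 12.7 and 37.9 CPM. Further listed genes on this side were Cxcl2, Tnc, Runx1 and Sfrp1. Runx1, a transcription factor, was at 46.4, 35.7 and 97.7 CPM, and Sfrp1, a secreted Wnt inhibitor, at 88.3, 105 and 224. Cilp, whose levels are given above, also passed. With plain CPM, Cxcl2 (0.90), Runx1 (0.97), Sfrp1 (0.95) and Cilp (0.91) were under 2-fold above the nearer saline level (log2 ratios in brackets), while Tnc was at 1.04 and Cxcl9, Myoc, Pmepa1, Has1, Palld and Zim1 at 1.19 to 1.44.

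The lower side held Ccnd1, Apoe and Dlk1. Plvap, an endothelial marker, was also more than 2-fold lower in C6W than in S6W but not than in S2D, with the levels given above, and its part in the lower genes was not tested. Ccnd1 (cyclin D1), a driver of the G1 phase, was at 26.1 CPM in S2D, 24.2 in S6W and 3.53 in C6W, a log2 ratio of C6W to S6W of -2.78 (-3.55 to -2.09). It was found in 16.3% of S6W and 1.89% of C6W Smoc2 fibroblasts, and in 1.70 and 3.64% of lymphocytes. The C6W share was thus no higher than that of lymphocytes. Whether Ccnd1 in lymphocytes was free RNA or their own was not tested. Ccnd2 (cyclin D2) was at 236, 224 and 110 CPM. Cnmd (chondromodulin), an inhibitor of vessel growth, was at 34.0, 21.6 and 4.27 CPM, and Gpr182, a scavenging chemokine receptor, at 13.2, 15.5 and 3.16. Apoe, the lipid carrier apolipoprotein E, was at 2215, 2161 and 932 CPM, and Apod at 430.2, 215.7 and 103. Mgll, which hydrolyses monoacylglycerols, was at 9.22, 10.3 and 2.60 CPM. Dlk1, Slc25a35, Hhip, Stc2 and Adam23 were also among the 10 lowest. Apart from Plvap, Apoe, Apod, Ccnd2 and Dlk1, the genes of this paragraph were at or below 34.0 CPM in every library of Smoc2 fibroblasts. Those genes rest on few UMIs per cell.

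**Figure D3:**
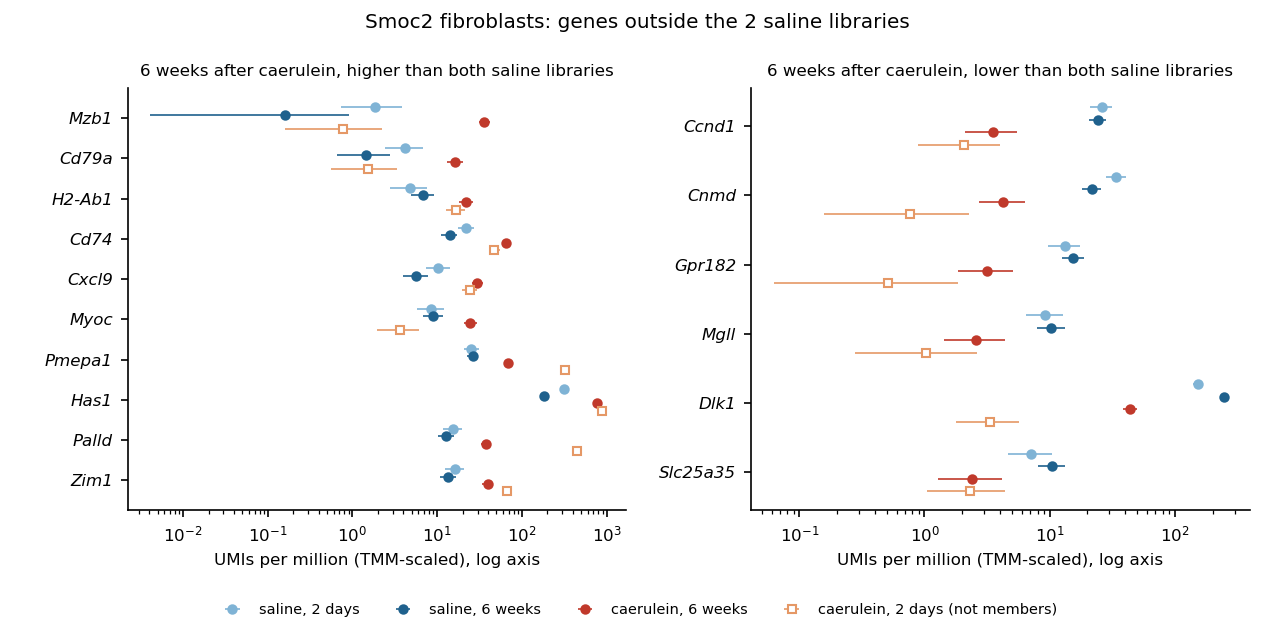
Levels (points, CPM after TMM scaling, log axis, with 95% Poisson intervals) of the 10 genes highest and the 6 lowest in Smoc2 fibroblasts 6 weeks after caerulein, outside both saline libraries; squares are the C2D cells that passed the same rule. Mzb1, Cd79a, H2-Ab1 and Cd74 came from 1 cell, and the 6 lowest genes lie below both saline libraries in C6W.

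Dlk1, an imprinted Notch-related membrane protein of immature cells, was found mainly in a small set of cells. It was at 153 CPM in S2D, 248 in S6W and 43.7 in C6W, a log2 ratio of C6W to S6W of -2.50 (-2.71 to -2.30). Cells with 3 or more Dlk1 UMIs were 30 of 375 (8.0%), 55 of 478 (11.5%) and 13 of 528 (2.46%). They held 94.3, 96.5 and 92.3% of all Dlk1 UMIs, a share that the cut itself sets in part. In S2D, S6W and C6W, Dlk1 was at 1801, 1982 and 1449 plain CPM in these cells and at 9.58, 10.4 and 3.24 in the others. It was thus lowest in C6W in both. Apoe was higher in these cells than in the others, at 4005 against 2089 plain CPM in S2D, 3767 against 2042 in S6W and 1883 against 853 in C6W. Apoe was thus lower in C6W in the other Smoc2 fibroblasts too. Meg3, which lies in the same imprinted cluster on chromosome 12, was at 4061 against 1911, 2562 against 1576 and 2631 against 1440. Ccnd1 in S6W was at 37.5 plain CPM in cells with Dlk1 and 23.6 in the others, and in C6W at 6.68 and 3.24. The Dlk1 cells were singled out after the values were seen.

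Most of the genes lower in C6W than in S6W that were measured in S2D were higher there in Smoc2 than in Pi16 fibroblasts. The ratio of the classes was read in S2D, a library outside the comparison of C6W with S6W. Of the 54 genes, 23 had 100 UMIs over both classes there, and 16 (69.6%) were at least 2-fold higher in Smoc2 than in Pi16 fibroblasts, with a median log2 ratio of 2.39. Over all tested genes the share was 9.03% and the median 0.09. In S2D the Smoc2 class held 3746227 UMIs and the Pi16 class 1040348. A gene of low level thus reached the minimum more readily if it was higher in Smoc2 fibroblasts, and the part of this in the share was not tested. Of the 65 genes higher in C6W, 32 were measured, and 7 were higher and 7 (21.9%) lower in Smoc2 fibroblasts, beside 3.99% lower over all genes. In C6W more cells carried both Smoc2 and Pi16, as given above, and the part of this in the lower genes was not tested. With 5 or more Smoc2 UMIs asked for, 61 genes were higher and 52 lower in C6W than in S6W.

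The 6-week differences leaned the way of the acute ones. C2D cells passing the same rule differed from S2D Smoc2 fibroblasts in many genes: of 7160 genes, 607 (8.48%) were higher in C2D by 2-fold or more and 517 (7.22%) lower. The 6-week pair and this pair share no library, but the genes were looked at together after their values were seen. Of the 65 genes higher in C6W than in S6W, 51 were measured at 2 days, and 31 (60.8%) were higher and 4 (7.84%) lower there, with a median of 1.27. Of the 54 lower genes, 37 were measured, and 23 (62.2%) were lower and 5 (13.5%) higher, with a median of -1.34. Over the 7074 genes measured at both times, 7.61% were higher and 7.29% lower at 2 days. Read the other way, of the 607 genes higher at 2 days, 538 were measured at 6 weeks and 31 (5.76%) were higher, beside 0.721% of all, with a median of 0.11. Most of the acute differences were under 2-fold at 6 weeks. With cells thinned to 3000 UMIs, 12 of 27 measured genes (44.4%) were higher at both times and 6 (22.2%) were higher at 6 weeks and lower at 2 days, and the median was -0.02. Over the 2340 genes measured at both times after thinning, 8.33% were higher and 10.4% lower at 2 days. With a minimum of 400 UMIs, 11 of 24 (45.8%) were higher at both times, with a median of 0.26. Over all 2658 genes measured at both times with that minimum, 7.71% were higher and 8.54% lower at 2 days. Of 5 lower genes measured after thinning, 4 were lower at both times. The C2D cells were deeper and fewer than those of the other libraries, and the part of depth in these shares was not tested.

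**Figure D4:**
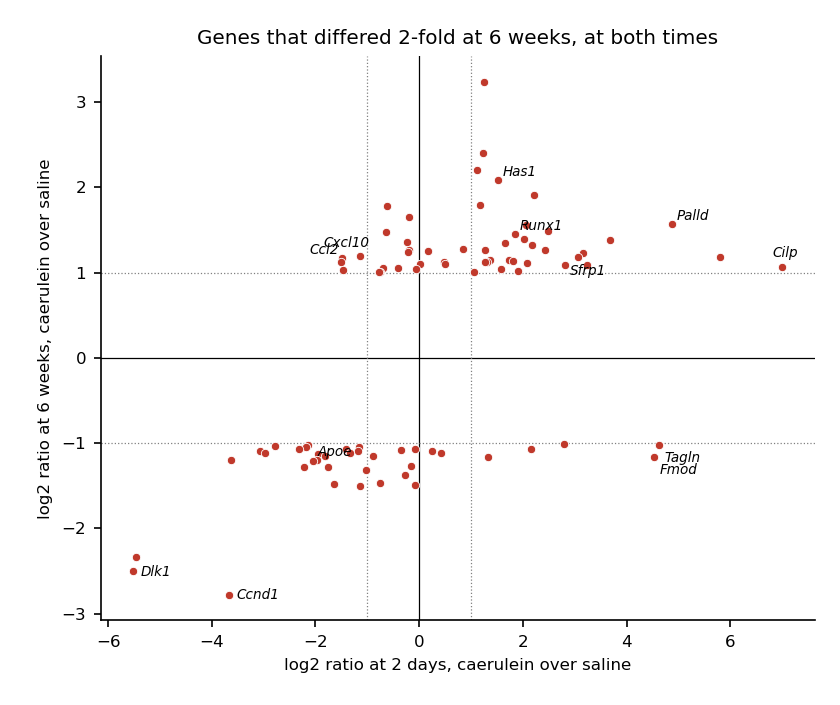
Log2 ratio of caerulein over saline at 2 days (horizontal axis) and at 6 weeks (vertical axis) for the 88 genes that differed at least 2-fold at 6 weeks and were measured at both times (points); dotted lines mark 2-fold. The points were chosen on the vertical axis, and 31 of the 51 higher genes lie right of the 2-fold line and 23 of the 37 lower genes left of it.

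Single genes showed different courses. Has1 was at 891 CPM in C2D, close to the 775 CPM of C6W. Palld was at 448 CPM in C2D and Cilp at 2197, far above their C6W levels of 37.9 and 197. Sfrp1 and Runx1 were at 620 and 166 CPM. Dlk1 was at 3.34 CPM, Ccnd1 at 2.05 and Apoe at 535 in C2D, each below C6W. The genes highest in C2D against S2D were Thbs4, Postn, Cthrc1, Slpi and Ncam1. Postn was at 1765 CPM in C2D against 3.95 in S2D. Thbs4 was at 562 CPM against no UMI in S2D, at least a log2 ratio of 9.47 with 3 counts as the floor. The 5 lowest were Nmb, Gsta3, Ces1d, Alkal2 and Tff2. Nmb, one of the genes that set Smoc2 fibroblasts apart, was at 306 CPM in S2D, 220 in S6W, 197 in C6W and 3.59 in C2D. Its level 6 weeks after caerulein was near that of saline.

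Ranked by variance over mean, several secreted genes and Mt1 were among the genes that varied most between Smoc2 fibroblasts. Genes of the rule and mitochondrial, ribosomal, haemoglobin, immunoglobulin, digestive, sex-linked and unnamed genes were left out here. At 3000 UMIs per cell, 1714 of the other genes had a mean of at least 0.2 UMIs in each library. Their median variance over mean, taken as the smallest of the 3 libraries, was 1.01, near the value of pure counting, and the 95th percentile was 2.17. The 10 highest were Mgp, Mt1, Malat1, Gsn, Ccl7, Ccl11, Cxcl14, Cxcl10, Cxcl1 and Ccl2. At a given relative spread this measure rises with the level of a gene. Gsn and Malat1 were abundant and fairly even, with 0% of cells at 0. The tenth of cells with the most of either gene held 17.7 to 19.3% of its UMIs. Mgp led with a variance over mean of 21.5 in S2D, 22.8 in S6W and 21.8 in C6W. Its quartiles were 5 and 27.8 UMIs in S2D, 9 and 37 in S6W and 8 and 35 in C6W, with medians of 14, 20 and 18. Mt1, a metallothionein that binds zinc and copper, had medians of 19, 13 and 31. The quartile ranges of Mt1 and of Mgp overlapped between the libraries.

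Chemokine genes were patchy. Ccl2 was at 0 in 62.0% of cells in S2D, 73.5% in S6W and 68.4% in C6W, and the tenth of cells with the most Ccl2 held 59.5, 80.6 and 75.1% of its UMIs. In C6W 1 cell had 124 of its 3000 UMIs in Ccl2, against 29 and 30 for the highest cells of S2D and S6W. Cxcl10 was at 0 in 85.0, 90.8 and 82.6% of cells. Cxcl14 was at 0 in 55.1, 42.2 and 41.7% of Smoc2 fibroblasts. Ccl11 was at 0 in 1.60, 3.57 and 4.55%.

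**Figure D5:**
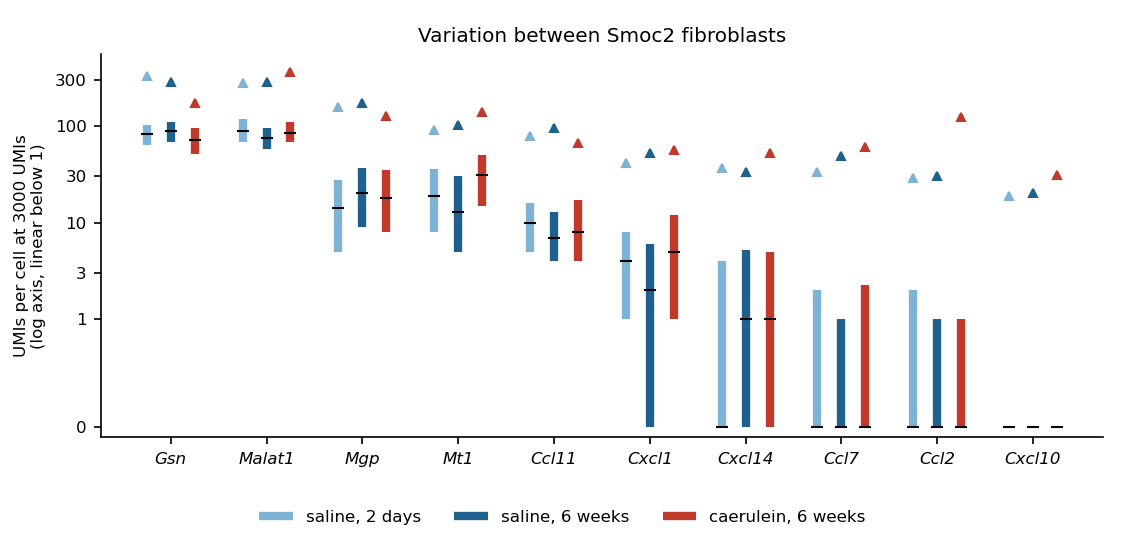
UMIs per cell after thinning to 3000 UMIs (log axis, linear below 1) of the 10 most variable genes in Smoc2 fibroblasts, by library: bars run between the quartiles, black marks are medians and triangles the highest cell. Ccl2 and Cxcl10 have medians of 0 in each library, and the highest Ccl2 cell of C6W lies at 124.

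These genes went together in part. Across cells of a library, Ccl11 and Mt1 had a Spearman rho of 0.53 in S2D (374 cells), 0.41 in S6W (476) and 0.41 in C6W (528). Ccl11 and Ccl7 had 0.37, 0.36 and 0.35, and Cxcl1 and Mt1 0.32, 0.48 and 0.36. Smoc2 and Mgp had 0.37, 0.36 and 0.25. The cells of a library share 1 dissociation and 1 capture, all were cut to the same depth, and the values are descriptions.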

How the data were processed

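Each library was 1 sample of pancreas cells captured with a droplet 3' assay. Per the submitters' processing notes, reads were processed with Cell Ranger 3.0.2 against mm10, and the authors deposited raw UMI counts per gene and barcode. From these counts, barcodes were filtered and classed by the stated rule, and the UMIs of all cells in 1 class and library were added up. Sums were scaled by TMM factors (edgeR 4.0.16, R 4.3.3), and no count model was fitted. Ratios carry exact conditional binomial intervals, levels Poisson intervals and shares Clopper-Pearson intervals, all at 95% and for counting error only. A library with no UMI was set to a floor of 3 counts over the class. A gene needed 100 UMIs, and a 2-fold difference was counted. Thinning drew 3000 UMIs per cell and left out shallower cells. Lymphocytes had Ptprc and 2 or more UMIs of Cd79a and Cd79b or of Cd3d, Cd3e and Cd3g. The main values kept doublets. In an alternative the cells with the highest Scrublet scores (scanpy 1.11.5), 0.8% per 1000 barcodes, were left out. The ratio script was tested on simulated data.

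The genes named were the markers, the 10 highest and 10 lowest of each main comparison (5 and 5 for S6W against S2D and for C2D against S2D), up to 6 of each gene list and the 10 most variable genes. Mitochondrial, ribosomal, haemoglobin, immunoglobulin, digestive, sex-linked and unnamed genes were left out of the rankings. Ccnd2, Cilp in C6W and the cells with Dlk1 were singled out after their values were seen. The cells described and the gene lists were chosen with earlier results of these data known. Alternatives were other scalings, count minimums, depths, free-RNA subtraction, doublet and cell filters, Smoc2 thresholds and cell weights. A few genes that the rule names are not reported here.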

Additional observations from a re-analysis of the deposited data

Results flagged for a closer look

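For 4 genes the ratio of caerulein over saline was past 2-fold in opposite directions at 2 days (C2D cells of the same rule over S2D) and at 6 weeks (C6W over S6W). With 1 library in each group, the difference between the times was not tested. Ccl2 had a log2 ratio of -1.51 at 2 days and 1.12 at 6 weeks. With plain CPM its 6-week value was 0.98, under 2-fold. Cxcl10, an interferon-induced chemokine, had -1.14 and 1.20. Fmod, a small proteoglycan that binds collagen, had 4.53 and -1.17. Tagln, an actin-binding protein of contractile cells, had 4.63 and -1.03. Fmod and Tagln were at 12.9 and 25.3 CPM in S6W and at 5.76 and 12.5 CPM in C6W, so their 6-week ratios rest on low levels. For Tagln, S6W was itself outside the other libraries, since S2D was at 10.0 CPM, so against S2D the C6W level was not lower.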

How the results depend on the processing

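No paired analysis was possible because each group is 1 library with replicate number 1. With 1 library a group, no setting tells a treatment from a library. Counts of genes below are higher, then lower. With a minimum of 20 UMIs, counts were 217 and 229 for C6W against S6W, 199 and 258 for C6W against S2D, 188 and 201 for S6W against S2D, 1057 and 1071 for C2D against S2D, 395 and 267 for Smoc2 against Pi16 fibroblasts, and 88 and 161 for C6W outside both saline libraries. With 400 UMIs they were, in the same order, 27 and 14, 21 and 9, 8 and 14, 257 and 227, 106 and 55, and 10 and 8. With cells thinned to 3000 UMIs they were 32 and 21, 27 and 15, 18 and 19, 207 and 244, 130 and 53, and 14 and 8. These settings test more or fewer genes. With free RNA subtracted they were 152 and 829 (C6W against S6W), 115 and 200 (C6W against S2D), 635 and 131 (S6W against S2D) and 52 and 523 (C6W outside both), and 1213 were higher in C2D than in S2D. This setting also removes RNA that lymphocytes make themselves. Under it Cxcl2, with 642 UMIs in C6W before subtraction, turned to -5.36 (log2, C6W against S6W), and the cause was not tested. Whether this value is a bound set by the floor for a library with no UMI was not tested either. It is therefore not read as a lower Cxcl2 level in C6W. With plain CPM or totals without digestive genes, 37 were higher and 83 lower in C6W than in S6W, and 18 were higher in C6W outside both. With 5 or more Smoc2 UMIs, shares of Smoc2 fibroblasts were 50.9% (S2D), 60.8% (S6W), 44.2% (C6W) and 28.6% (C2D), since fewer cells pass. Thinning gave 26.3% in C2D. Values of single genes under the alternatives were tallied together with the counts for S6W and for S2D outside the other libraries. Of these, 898 stayed, 66 moved and 1 reversed. A gene stayed if its value lay within the counting interval of its main ratio, and a count if it was of similar size. The minimums of 20 and 400 UMIs leave the ratio of a gene unchanged, so a gene tallied there stayed by construction. Such values are among the 898. Genes under the UMI minimum of a setting were not tallied there.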
